A study of Homo sapiens with 12 samples.

Results

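The YTH domain m6A readers are the 5 human proteins YTHDF1, YTHDF2, YTHDF3, YTHDC1 and YTHDC2. They were described here by the mRNA level of their genes in the input libraries, and the gene rows were chosen by Ensembl identifier through a table of gene symbols: all 5 were found among 20308 genes, and all 5 passed the filter of a mean of at least 0.5 FPKM that left 12757 genes to test. FPKM divides the fragments of a gene by its transcript length and by the mapped fragments of the library, and is thus a level per length, so levels of different genes can be set side by side. The cells were C4-2, an established castration-resistant human prostate cancer line. They carried either an empty vector, the group labelled NC with no treatment, or an ALKBH5 overexpression construct, the group labelled oeALKBH5, with 3 input libraries in each group and 6 in all. The 6 matching m6A immunoprecipitation libraries were not analysed here, since their peaks carry positions without gene names. No label says that the replicates were separate cultures, how long the construct was expressed or that the cells were 1 clone or many, so p-values cover the spread between these libraries alone, and that spread may be technical.

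N6-methyladenosine (m6A) is the most common internal modification of mRNA. Its effect on an RNA depends largely on proteins that bind the methylated base, and the YTH domain is a fold that holds the methyl group in a pocket of aromatic residues. YTHDF1, YTHDF2 and YTHDF3 are close cytoplasmic relatives that act on mRNA decay and translation. YTHDC1 is nuclear and acts on splicing, export and nuclear RNA decay, and YTHDC2 is an RNA helicase best known for its role in meiosis. ALKBH5, the overexpressed protein, removes the methyl group that these proteins bind.

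Among the readers, YTHDF3 rose 1.71-fold in oeALKBH5 cells, with means of 36.6 ± 4.71 FPKM (NC) and 62.5 ± 9.53 FPKM (oeALKBH5; ± SD, n = 3 in each group). For YTHDC1 the means were 43.8 ± 4.19 FPKM (NC) and 58.6 ± 5.85 FPKM (oeALKBH5); its groups did not overlap, but the difference did not pass the test over all genes. YTHDF1, YTHDF2 and YTHDC2 had overlapping groups and did not pass the test. Of the 5 readers, 1 was thus called higher and none lower, where limma called 5.45% of the tested genes, 3.02% higher and 2.43% lower. YTHDF3 and YTHDC1 had an unadjusted p under 0.05, 2 of 5 readers, as did 21.9% of the tested genes. The groups did not overlap, with oeALKBH5 higher, in 2 of the 5 readers and in 15.1% of the tested genes; 28.1% did not overlap in either direction and 13.0% with oeALKBH5 lower, which no reader did. The number of called genes over the whole table, 695, was 387, 325 and 232 without NC replicates 1, 2 and 3 and 436, 367 and 282 without oeALKBH5 replicates 1, 2 and 3.

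**Figure D1:**
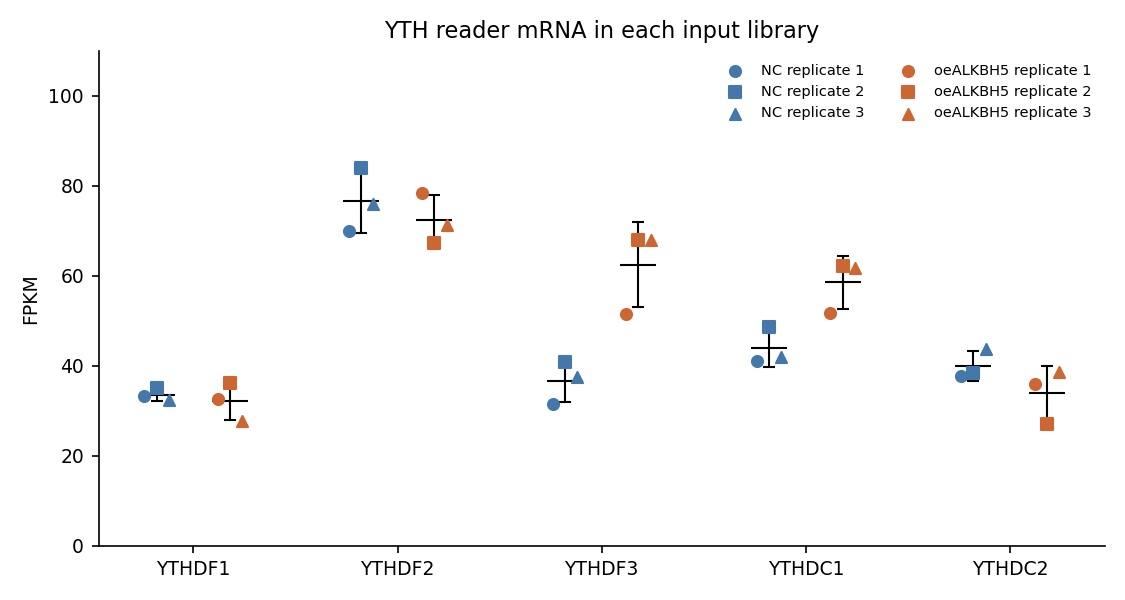
FPKM (linear axis from 0) of each YTH reader in the 3 NC and 3 oeALKBH5 input libraries; symbols are libraries, horizontal bars are group means and error bars are 1 SD (n = 3). For YTHDF3 the lowest oeALKBH5 library, at 51.5 FPKM, lies above the highest NC library, at 40.9 FPKM, while the groups of YTHDF1, YTHDF2 and YTHDC2 overlap.

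Values of the whole table bear on these results in few places. Library sums ranged from 511333 to 524905 FPKM. The absolute depth of the libraries is unknown, and the depth relative to NC replicate 1, from the commonest ratio of values below 1 FPKM, ranged from 0.768 in oeALKBH5 replicate 2 to 1.13 in NC replicate 2; each ratio rested on 14 to 28 of 199 genes and is a rough estimate. ALKBH5, the gene that checks the labels, stood at 64.9, 61.1 and 58.2 FPKM in NC replicates 1, 2 and 3 and at 80.3, 74.3 and 72.5 FPKM in oeALKBH5 replicates 1, 2 and 3. Its groups did not overlap, but the difference of 0.30 on the log2(FPKM + 1) scale was not called (limma adjusted p = 0.114); whether its value holds the reads of the construct is not known. The 8 prostate luminal markers summed to between 2065 and 2257 FPKM over the 6 libraries; 1 of the 8 was called, the keratin KRT8, which rose from 137 ± 8.44 to 223 ± 13.2 FPKM (limma adjusted p = 0.0024), while the most abundant, KLK3 and FOLH1, were not. The 6 immune cell markers summed to between 0.521 and 4.28 FPKM in NC and between 3.49 and 8.28 FPKM in oeALKBH5 libraries, and the leukocyte gene PTPRC was at or below 0.0668 FPKM in the former and at 0.213 to 0.456 FPKM in the latter. CD3E went the other way, with means of 1.14 ± 0.808 FPKM (NC) and 0.691 ± 0.621 FPKM (oeALKBH5). CD68 had means of 0.492 and 0.507 FPKM and CD14 of 0.0591 and 0.0998 FPKM in the same order, with overlapping groups. The most abundant of the 6, LYZ and CD3D, had oeALKBH5 means of 2.32 and 1.83 FPKM, none of the 3 tested was called by limma and 1 had an unadjusted p under 0.05, but LYZ was called without oeALKBH5 replicate 2 (adjusted p = 0.0339); the part of these markers in the readers' values was not tested. The 5 fibroblast markers summed to between 3.86 and 12.6 FPKM in NC and between 2.17 and 27.7 FPKM in oeALKBH5 libraries, nearly all of it COL1A1, with DCN and LUM at 0 in all 6 libraries. The endothelial genes VWF and CDH5 summed to at most 1.12 FPKM in each library.

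YTHDF3 shares its targets widely with YTHDF1 and YTHDF2 and has been linked to both translation and decay of methylated mRNA. It stood at 31.6, 40.9 and 37.5 FPKM in NC replicates 1, 2 and 3 and at 51.5, 68.0 and 67.9 FPKM in oeALKBH5 replicates 1, 2 and 3. All 3 oeALKBH5 libraries lay above all 3 NC libraries, with oeALKBH5 replicate 1 the lowest of its group. The log2 difference was 0.75 (SE 0.15, 95% interval 0.41 to 1.09, limma adjusted p = 0.0259), which ranked it 381 of 12757 genes by p. An exact permutation of its 6 values gave p = 0.1, the lowest value possible with 3 libraries in each group. The call was not secure: leaving out NC replicate 1 or 3 gave a limma adjusted p of 0.0773 or 0.0901, and leaving out oeALKBH5 replicate 2 or 3 gave 0.0801 or 0.0865, although the log2 difference stayed between 0.65 and 0.88 in all 6 such fits. It was also lost with no filter on low values (adjusted p = 0.0727) and without the intensity trend (adjusted p = 0.0837).

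YTHDF1 is best known for promoting translation of methylated mRNA. Its values were 33.2, 35.0 and 32.4 FPKM in NC replicates 1, 2 and 3 and 32.6, 36.1 and 27.7 FPKM in oeALKBH5 replicates 1, 2 and 3. The lowest and the highest of the 6 values were both in oeALKBH5 libraries. The log2 difference was -0.07 (SE 0.13, limma adjusted p = 0.813), with a 95% interval from -0.37 to 0.23, and it changed sign, to 0.03, without oeALKBH5 replicate 3.

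YTHDF2 recruits the CCR4-NOT deadenylase to methylated mRNA and so shortens its life. It was the most abundant reader mRNA in 5 of the 6 libraries, at 69.9, 84.0 and 76.0 FPKM in NC replicates 1, 2 and 3 and 78.5, 67.2 and 71.3 FPKM in oeALKBH5 replicates 1, 2 and 3. The groups overlapped through most of their range. The log2 difference was -0.08 (SE 0.11, limma adjusted p = 0.711), and it was -0.14 without NC replicate 1 and -0.01 without NC replicate 2. Its 95% interval ran from -0.32 to 0.16, so a change of the size measured for YTHDF3 lies outside the interval of YTHDF2 as well as that of YTHDF1.

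YTHDC1, the nuclear reader, was at 41.0, 48.6 and 41.9 FPKM in NC replicates 1, 2 and 3 and at 51.8, 62.1 and 61.8 FPKM in oeALKBH5 replicates 1, 2 and 3. The lowest oeALKBH5 library was again replicate 1 and lay above the highest NC library, replicate 2. The log2 difference was 0.41 (SE 0.12, 95% interval 0.13 to 0.69), with an adjusted p from limma of 0.0937 and an exact permutation p of 0.1. Limma's adjusted p lay between 0.0771 and 0.234 over the 13 alternative fits, and the log2 difference between 0.36 and 0.49, so the direction held in each fit and the call was made in none.

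YTHDC2 carries a DEAH-box helicase core beside its YTH domain. It was at 37.8, 38.3 and 43.8 FPKM in NC replicates 1, 2 and 3 and at 35.9, 27.0 and 38.6 FPKM in oeALKBH5 replicates 1, 2 and 3. The lowest value was that of oeALKBH5 replicate 2, which also had the lowest relative depth, 0.768; the part of depth in it was not tested. The log2 difference was -0.25 (SE 0.15, limma adjusted p = 0.389), with a 95% interval from -0.60 to 0.10, and it was -0.10 without oeALKBH5 replicate 2.

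**Figure D2:**
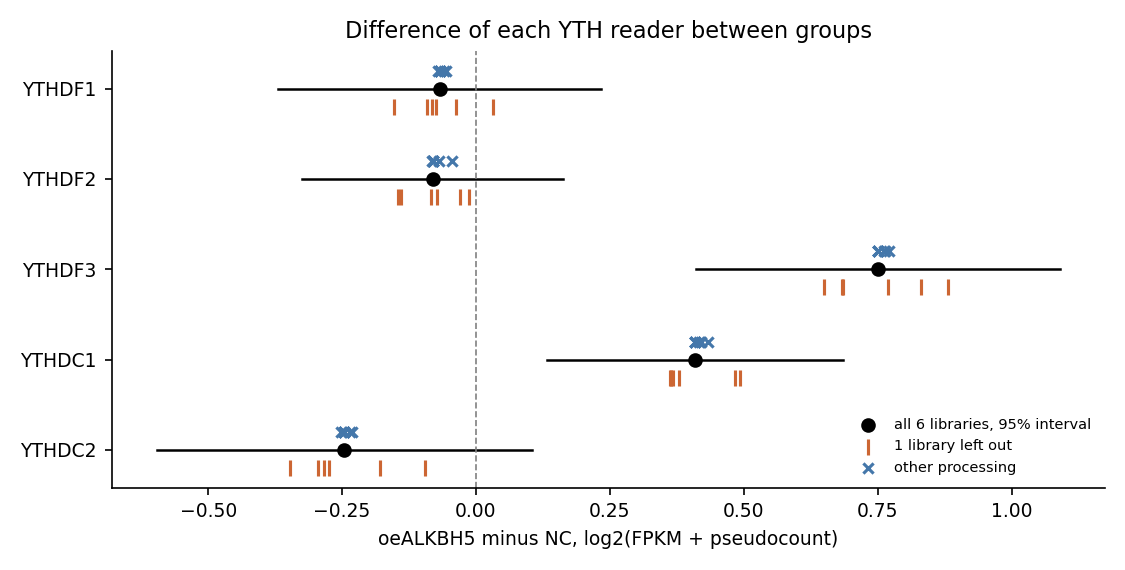
Difference between groups (oeALKBH5 minus NC) of each YTH reader on the log2 scale; black points are limma estimates from all 6 libraries with their 95% intervals, orange ticks the 6 fits that left out 1 library and blue crosses the 7 other processing alternatives, with a pseudocount of 1 in all but 1 of them. YTHDF3 at 0.75 and YTHDC1 at 0.41 stayed above 0 in every fit, YTHDF2 and YTHDC2 stayed below 0, and YTHDF1 changed sign in 1 fit.

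The readers varied between replicates about as much as other genes of like level. The coefficient of variation was 4.03% to 12.9% in NC and 7.88% to 18.0% in oeALKBH5 libraries. Among the 4239 tested genes with a mean of 20 to 100 FPKM, the median was 10.8% in NC and 12.1% in oeALKBH5 libraries. The means of the 5 readers over all 6 libraries, 32.8 to 74.5 FPKM, lay between the 75.4 and 90.8 percentiles of tested genes, so none is a low gene in these cells. The gene name table lists 3 pseudogenes of the YTHDF genes (YTHDF1P1, YTHDF2P1 and YTHDF3P1). None of the 3 was found among the genes with values, so how reads shared with these copies were counted is not known.

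The readers were ordered by their mean level in each group. In NC libraries YTHDF2 stood first, at 76.6 FPKM, above YTHDC1 in all 3 libraries and with no overlap of their ranges. YTHDC1, YTHDC2, YTHDF3 and YTHDF1 followed at means of 43.8, 39.9, 36.6 and 33.5 FPKM; each lay above the next in only 2 of 3 libraries, so neighbours in this order did not differ beyond their spread. In oeALKBH5 libraries YTHDF2, YTHDF3 and YTHDC1 had means of 72.3, 62.5 and 58.6 FPKM with overlapping ranges, and YTHDF3 was the highest reader in replicate 2. YTHDC1 lay above YTHDC2 in all 3 oeALKBH5 libraries with no overlap, and YTHDC2 and YTHDF1, at 33.8 and 32.1 FPKM, overlapped again.

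The summed level of the 5 readers was 213, 247 and 232 FPKM in NC replicates 1, 2 and 3 and 250.2, 260.4 and 267 FPKM in oeALKBH5 replicates 1, 2 and 3. The lowest oeALKBH5 sum was close to the highest NC sum, and the group means were 231 ± 16.8 and 259 ± 8.65 FPKM. Since the members were chosen together, the sum and the shares below are descriptions with no test. YTHDF3 made up 14.8%, 16.6% and 16.2% of the sum in the NC libraries and 20.6%, 26.1% and 25.4% in the oeALKBH5 libraries. YTHDF2 went the other way, from 33.2 ± 0.727% to 27.9 ± 2.99% of the sum, although its own level did not pass the test. YTHDC1 made up 19.0 ± 0.819% in NC and 22.6 ± 1.64% in oeALKBH5 libraries, YTHDC2 17.4 ± 1.73% and 13.0 ± 2.33%, and YTHDF1 14.6 ± 0.867% and 12.4 ± 1.82%. The groups did not overlap in any of the 5 shares, but those of YTHDF1 nearly met. Its lowest NC share was 13.98% and its highest oeALKBH5 share 13.86%, and for YTHDC2 these were 15.5% and 14.5%. Shares of 1 sum depend on each other, and a higher YTHDF3 lowers the others by construction.

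**Figure D3:**
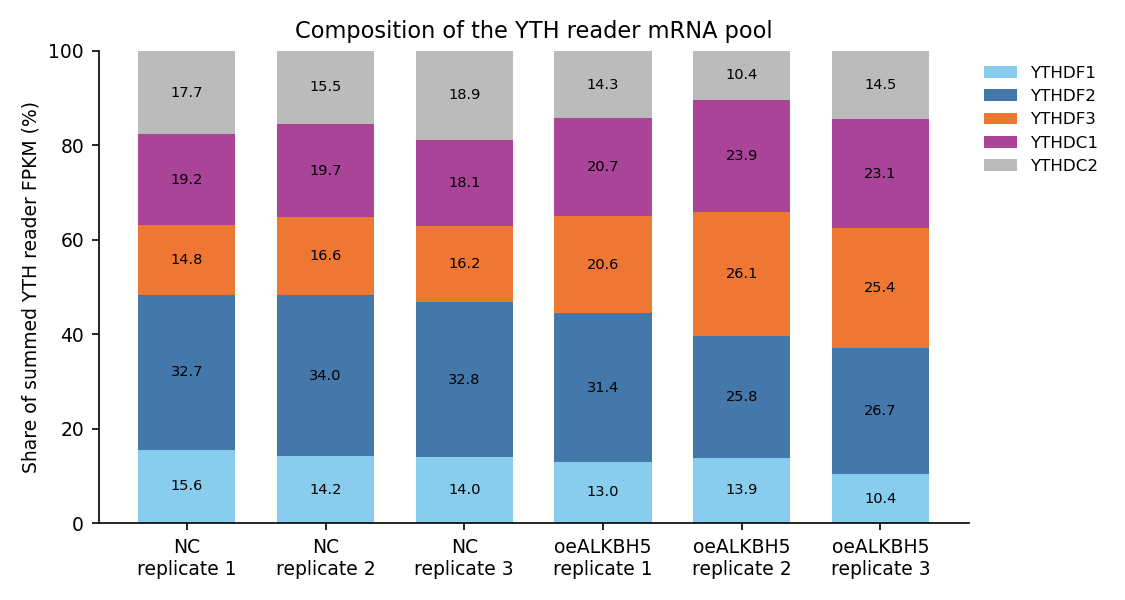
Share of each YTH reader in the summed FPKM of the 5 readers (percent, stacked to 100) in each input library, with the value printed in each block. The YTHDF3 block is at most 16.6% in NC libraries and at least 20.6% in oeALKBH5 libraries.

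Within the cytoplasmic trio, YTHDF3 mRNA was 0.452, 0.487 and 0.493 times that of YTHDF2 in NC replicates 1, 2 and 3 and 0.656, 1.01 and 0.952 times in oeALKBH5 replicates 1, 2 and 3. The oeALKBH5 ratios were all above the NC ratios, nearest to them in replicate 1 and close to equal levels of the genes in replicates 2 and 3; the difference between the changes of these genes was not tested. YTHDF3 made up 24.9 ± 1.26% of the trio in NC and 37.4 ± 4.94% in oeALKBH5 libraries. The ratio of YTHDF2 to YTHDF1 was 2.28 ± 0.159 in NC and 2.28 ± 0.373 in oeALKBH5 libraries, with overlapping groups. For the YTHDC pair, which share the domain but little else of their architecture, the ratio of YTHDC1 to YTHDC2 was 1.08, 1.27 and 0.957 in NC and 1.44, 2.30 and 1.60 in oeALKBH5 replicates 1, 2 and 3, without overlap.

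Profiles over the 6 libraries were compared by the root mean square difference of log2(FPKM + 1) after each gene's mean was subtracted, among genes with a symbol and a mean of at least 1 FPKM, 11778 genes beside the one in question. The genes most like YTHDF3 were TNFAIP8L1 and RIMS3, at distances of 0.0608 and 0.0697, both low genes, with NC means of 1.29 and 1.23 FPKM and oeALKBH5 means of 2.76 and 2.63 FPKM. Their folds of means were 2.14 and 2.14, beside 1.71 for YTHDF3, but neither was called (limma adjusted p = 0.178 and 0.205). The added 1 FPKM shrinks changes at such low levels, so their likeness to YTHDF3 holds on this scale only. The most like YTHDC1 were SASH1 (0.0525) and S100A13 (0.0527). For YTHDF1 they were ZNF618 (0.0378) and ATL3 (0.0395), for YTHDF2 UNC119B (0.0297) and ZNF280D (0.0416), and for YTHDC2 PPP1R2 (0.0339) and RMND1 (0.0437). Among the readers themselves, the closest pair was YTHDF1 with YTHDF2, at a distance of 0.151, followed by YTHDF2 with YTHDC2, at 0.177, and YTHDF3 with YTHDC1, at 0.187. The last ranked YTHDC1 as number 177 of 11778 in likeness to YTHDF3. YTHDF3 and YTHDC2 were farthest apart, at 0.56. These distances rest on 6 libraries and describe likeness of profiles alone.

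Promoter sequences of 4 of the 5 readers were in the RefSeq table used here (GRCh38.p14; 250 bases before to 50 after the gene start); YTHDF3 was not. Windows were searched on both strands for ACGTG, the core of the hypoxia response element, TGACGTCA, the cyclic AMP response element that CREB and ATF factors bind, and GAAANNGAAA, a core of the interferon-stimulated response element. The windows with a match are shown because they let the promoter of YTHDC1, whose groups did not overlap, be read beside those of YTHDC2 and YTHDF1, whose groups did. Each is printed 5′ to 3′ on the strand of its gene, with matches in capitals, YTHDC1 at chr4:68350041-68350340 (minus strand), YTHDC2 at chr5:113513444-113513743 (plus strand) and YTHDF1 at chr20:63216082-63216381 (minus strand).
YTHDC1: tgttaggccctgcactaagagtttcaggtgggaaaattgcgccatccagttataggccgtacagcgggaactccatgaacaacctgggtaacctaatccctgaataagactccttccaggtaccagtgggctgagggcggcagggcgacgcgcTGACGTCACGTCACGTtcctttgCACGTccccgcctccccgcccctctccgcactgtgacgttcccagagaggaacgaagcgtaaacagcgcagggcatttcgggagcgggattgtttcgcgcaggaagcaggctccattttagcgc
YTHDC2: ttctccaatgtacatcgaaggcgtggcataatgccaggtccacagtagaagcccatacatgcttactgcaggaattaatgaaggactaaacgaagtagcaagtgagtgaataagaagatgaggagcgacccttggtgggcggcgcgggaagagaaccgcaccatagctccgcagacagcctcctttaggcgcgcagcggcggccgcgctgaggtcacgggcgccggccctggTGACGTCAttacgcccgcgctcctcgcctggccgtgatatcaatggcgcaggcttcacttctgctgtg
YTHDF1: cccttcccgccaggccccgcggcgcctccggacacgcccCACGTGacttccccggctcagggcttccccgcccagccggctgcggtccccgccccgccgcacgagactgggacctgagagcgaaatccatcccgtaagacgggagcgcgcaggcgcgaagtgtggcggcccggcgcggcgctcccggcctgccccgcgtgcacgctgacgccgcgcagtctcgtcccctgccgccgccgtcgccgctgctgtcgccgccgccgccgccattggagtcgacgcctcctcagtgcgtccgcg

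YTHDC1 and YTHDC2 each held TGACGTCA, which 1.85% of the 35116 promoter windows of this length hold, from position -97 to -90 in YTHDC1 and from -18 to -11 in YTHDC2, counted from 0 at the start base. YTHDC1 also held 3 matches of ACGTG, all on the opposite strand, of which the one from -91 to -87 overlaps TGACGTCA. YTHDF1 held 2 overlapping matches of ACGTG, 1 on each strand, at -211 to -206. ACGTG is in 21.4% of all windows and GAAANNGAAA in 3.57%; the last was in none of the windows of the 4 readers, and the 2 windows of YTHDF2 held no match of the 3 motifs. A match is a description of letters, and the part of these motifs in the readers' levels was not tested. YTHDC1 and YTHDC2, which share TGACGTCA, had log2 differences of 0.41 and -0.25, neither past the test. YTHDF3, the only reader called, had no window to search.

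No gene of the decay routes that YTHDF2 acts through was called, beside 5.45% of all tested genes. Lists this short cannot be told apart from that share by holding no call. An unadjusted p under 0.05 was found for 21.9% of all tested genes. Of 13 genes of the CCR4-NOT deadenylase and its TOB adaptors, limma called none after adjustment and none had an unadjusted p under 0.05; their median log2 difference was -0.12, beside 0.02 for all tested genes. The scaffold CNOT1 had means of 102 ± 10.5 FPKM (NC) and 94.1 ± 6.91 FPKM (oeALKBH5), and the deadenylase CNOT7 of 117 ± 10.2 and 103 ± 14.9 FPKM in the same order, which holds for the pairs of values below. Of 11 genes of RNase P and MRP with the adaptor RIDA, the route by which YTHDF2 can have its targets cut, limma called none and 2 had an unadjusted p under 0.05 (median -0.25). The largest difference was that of RPP21, from 24.2 ± 5.22 to 10.4 ± 4.46 FPKM without overlap of the groups (log2 difference -1.22, limma adjusted p = 0.0590). The most abundant, POP4 and POP5, went from 50.3 ± 4.88 to 71.6 ± 10.6 FPKM and from 41.3 ± 1.66 to 36.6 ± 8.56 FPKM, neither past the test. Of 16 genes of decapping, 5′ decay and nonsense-mediated decay, limma called none and 3 had an unadjusted p under 0.05 (median 0.13), but 1, the decapping enhancer EDC3, was called without NC replicate 1 (adjusted p = 0.0343). The most abundant were the helicase DDX6, at 147 ± 4.76 and 177 ± 7.38 FPKM, and LSM14A, a P-body protein, at 123 ± 10.3 and 137 ± 7.47 FPKM.

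Among partners in translation and in cytoplasmic granules, 3 genes were called, where limma called 5.45% of all tested genes. Of 13 eIF3 subunits, the initiation factor that YTHDF1 has been linked to, 1 rose and 1 fell, with a median log2 difference of 0.01. An unadjusted p under 0.05 was found for 6 of the 13, beside 21.9% of all tested genes, and groups without overlap for 7, of which 4 were higher and 3 lower, beside 28.1% of all tested genes. EIF3F was called with quantile normalization (adjusted p = 0.0409) and not with the values as deposited. EIF3B, a core scaffold subunit, fell from 167 ± 6.61 to 121 ± 5.06 FPKM (log2 difference -0.46, SE 0.08, limma adjusted p = 0.0128). Its call was lost without NC replicate 2 (limma adjusted p = 0.0519), without the intensity trend (0.101) and with the replicate block (0.0538). EIF3H rose from 184 ± 28.3 to 249 ± 11.4 FPKM (limma adjusted p = 0.0484), a call lost on leaving out NC replicate 2 or 3 (0.136 or 0.166) or oeALKBH5 replicate 1, 2 or 3 (0.0885, 0.127 or 0.118). The most abundant subunits, EIF3L and EIF3E, were at 349 ± 6.68 and 394 ± 33.9 FPKM and at 336 ± 14.3 and 379 ± 12.2 FPKM, not past the test. Of 12 RNA granule proteins (median -0.00; 3 with an unadjusted p under 0.05), 1 rose, the poly(A)-binding protein PABPC1, from 1125 ± 39.8 to 1304 ± 48.3 FPKM (limma adjusted p = 0.0452). That call was lost whichever library was left out, with an adjusted p of 0.112, 0.0643 and 0.164 without NC replicates 1, 2 and 3 and 0.106, 0.0522 and 0.139 without oeALKBH5 replicates 1, 2 and 3. PABPC1 has near-identical copies in the genome, so its reads are also uncertain. CAPRIN1, the other most abundant member, was at 201 ± 18.6 and 205 ± 22.4 FPKM.

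Of 13 nuclear partners of YTHDC1 in splicing, export and nuclear decay, 1 was called higher and none lower, beside 3.02% and 2.43% of all tested genes. The median log2 difference of the 13 was 0.11. An unadjusted p under 0.05 was found for 3 of them, close to the share of all tested genes, 21.9%. THOC2, a subunit of the THO complex of mRNA export, was at 152, 155 and 131 FPKM in NC replicates 1, 2 and 3 and 216, 219 and 199 FPKM in oeALKBH5 replicates 1, 2 and 3. Its groups lay well apart, with a log2 difference of 0.53 (SE 0.09, limma adjusted p = 0.0120); the call held whichever library was left out, but not without the intensity trend (0.0943). SRSF7, a splicing and export factor, went the other way, from 99.3 ± 10.9 to 75.2 ± 1.06 FPKM. It was not called with all 6 libraries (limma adjusted p = 0.0645), but was called, as lower, without NC replicate 1 (0.0449). SRSF3, the splicing factor that YTHDC1 brings to methylated exons, was at 115 ± 5.89 and 121 ± 7.42 FPKM and was not called.

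For YTHDC2, the germline cofactors were at or near 0: RBM46 was listed at 0 in all 6 libraries, and MEIOC at 0 in 4 and at 0.305 and 0.183 FPKM in oeALKBH5 replicates 1 and 3. Of the 5 tested DEAH-box relatives (median -0.26), 1 was called lower and 1 had an unadjusted p under 0.05, beside 2.43% and 21.9% of all tested genes. The 1 called was DHX9, a nuclear helicase that unwinds double-stranded RNA. DHX9 was at 94.5, 89.1 and 98.4 FPKM in NC replicates 1, 2 and 3 and 60.3, 59.7 and 60.8 FPKM in oeALKBH5 replicates 1, 2 and 3. The oeALKBH5 values were nearly equal, and the log2 difference was -0.63 (SE 0.09, limma adjusted p = 0.0061), a call that held whichever library was left out but not without the intensity trend (0.0521). DHX36, the most abundant relative, was at 208 ± 8.92 and 223 ± 9.34 FPKM and was not called.

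The rest of the m6A machinery was set beside the readers. Over all tested genes, limma called 3.02% higher and 2.43% lower, and 21.9% had an unadjusted p under 0.05. Of 7 tested writer genes, limma called none and 3 had an unadjusted p under 0.05 (median -0.10). METTL3 and ZC3H13, 2 of these 3, were lower in oeALKBH5 libraries without overlap of the groups. Their log2 differences were -0.52 and -0.53 (limma adjusted p = 0.153 and 0.104). CBLL1, the other, was higher, at 46.7 ± 5.23 FPKM (NC) and 64.1 ± 13.1 FPKM (oeALKBH5), with overlapping groups. WTAP, which anchors the methyltransferase, was at 64.8 ± 6.56 and 59.4 ± 2.85 FPKM in the same order. Of the 2 erasers, limma called none and 1, ALKBH5, had an unadjusted p under 0.05; FTO was at 34.0 ± 4.98 and 43.9 ± 7.26 FPKM. Of 7 tested m6A-binding proteins without a YTH domain, 1 rose and 2 fell (median -0.15; 3 with an unadjusted p under 0.05). HNRNPA2B1, a nuclear reader, was at 693, 699.7 and 734 FPKM in NC replicates 1, 2 and 3 and 399, 318 and 323 FPKM in oeALKBH5 replicates 1, 2 and 3. It fell by 1.04 on the log2 scale (SE 0.09, limma adjusted p = 5.60e-04), and that call held in all 13 alternative fits. PRRC2A, another m6A-binding protein, fell from 96.0 ± 5.99 to 73.6 ± 2.50 FPKM (limma adjusted p = 0.0473). PRRC2A was no longer called whichever library was left out, with an adjusted p of 0.126, 0.0767 and 0.167 without NC replicates 1, 2 and 3 and 0.102, 0.0801 and 0.133 without oeALKBH5 replicates 1, 2 and 3. IGF2BP2 rose from 2.49 ± 0.729 to 8.26 ± 2.97 FPKM (limma adjusted p = 0.0383), a level that stayed below that of each YTH reader; its adjusted p was 0.110, 0.0675 and 0.116 without NC replicates 1, 2 and 3 and 0.104 and 0.101 without oeALKBH5 replicates 1 and 2. HNRNPC, with 339 FPKM in both groups (SD 25.2 in NC and 11.1 in oeALKBH5 libraries), was not called.

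**Figure D4:**
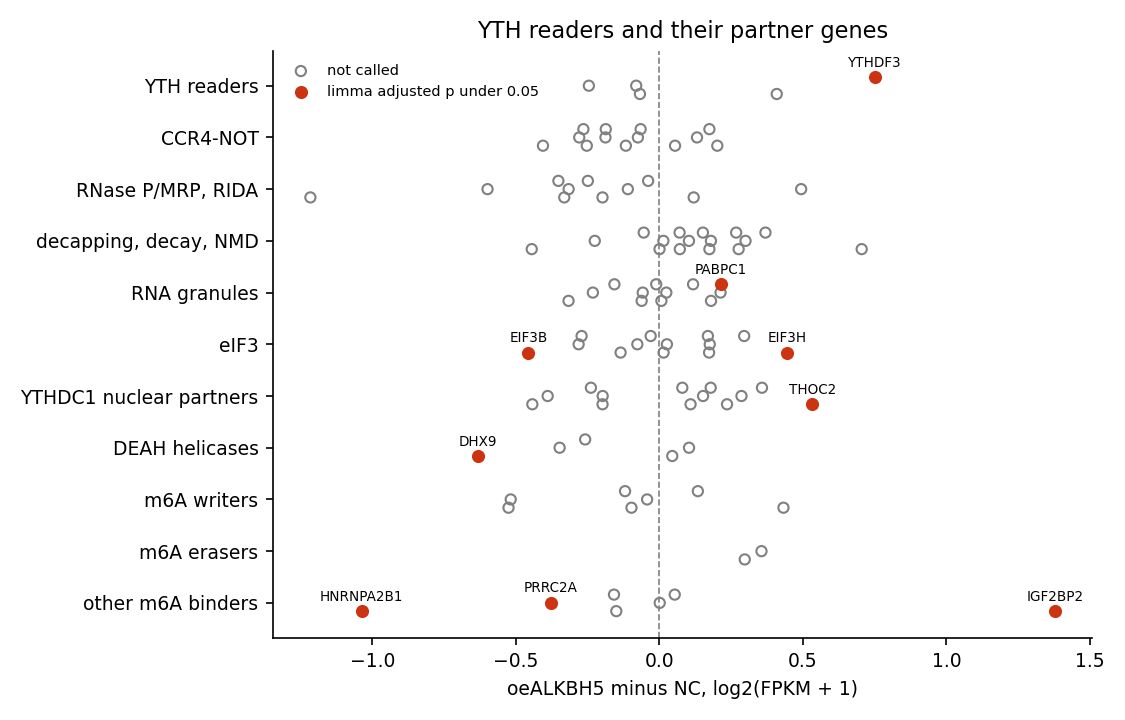
Difference between groups (oeALKBH5 minus NC, log2(FPKM + 1)) of the 5 YTH readers and of each tested gene of 10 lists around them; filled points passed limma's test over all genes (adjusted p under 0.05) and are named, open points did not, and heights within a row only separate points. YTHDF3, at 0.75, is farther from 0 than each called gene of the lists except HNRNPA2B1 (-1.04) and IGF2BP2 (1.38).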

How the data were processed

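Input RNA of C4-2 cells was analysed as 3 NC and 3 oeALKBH5 libraries, grouped by the titles in the labels. Libraries were strand-specific, made from RNA depleted of ribosomal RNA and read as paired ends, per the labels' protocols. Per the submitters' processing notes, cutadapt 1.9.3, HISAT2 2.0.4, Cufflinks and Cuffdiff and the build hg19 were used; the role of each, the annotation and the filters are not given in the sources used here. The values deposited by the authors were taken as FPKM, which the table does not name and which follows from these tools and from the values.

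Genes whose mean over the 6 inputs reached 0.5 FPKM were tested on log2(FPKM + 1) with limma 3.58.1 in R 4.3.3 (intensity trend, two-sided, Benjamini-Hochberg over 12757 genes, threshold 0.05). The added 1 understates changes, slightly at the levels of the readers and more in genes of a few FPKM. IGF2BP2, for example, had a fold of means of 3.32 and a log2 difference of 1.38. Differences are oeALKBH5 minus NC. Exact permutation tests were two-sided over the 6 libraries. Of 20308 identifiers, 19434 had a symbol, and 3 genes of the lists (DCP1A, RBM15B and PECAM1) were not matched. Members and lists were chosen with earlier results of these data known. Named were the readers, ALKBH5, up to 4 called genes and the 2 most abundant genes of each list, and the 2 genes most like each reader. PTPRC, CD3E, CD68, CD14, DCN, LUM, CDH5, MEIOC, RBM46, EDC3, SRSF7, EIF3F, RPP21, METTL3 and ZC3H13 were named after their values were seen. The motifs were also chosen after the values were seen. Tables and figures were made in Python 3.11.15 (numpy 2.4.6, pandas 2.3.3 and matplotlib 3.10.9). The fits were tested on simulated data in which 200 of 12757 genes, at 20 to 100 FPKM, were shifted. Shifts of 0.25, 0.5 and 1 on the log2 scale were called in 0%, 0% and 65% of these genes. The simulated spread of each gene was its own SD within groups, and fewer genes changed there than the 695 called in the data. PRRC2A, at a mean of 84.8 FPKM, was called in the data at a log2 difference of -0.38. The simulated shares are therefore not those of the data. A difference that was not called is thus not shown to be absent. Alternatives were another pseudocount (0.1), no filter or a minimum mean of 1 FPKM, quantile or upper quartile scaling, no trend, a replicate block and leaving out each library. The 6 peak lists were not used, since their hg19 positions carry no gene names and the annotation used here is of GRCh38.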

Additional observations from a re-analysis of the deposited data

How the results depend on the processing

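YTHDF3 kept its direction in all 13 alternative fits and its call in 7, among them both scalings, the pseudocount of 0.1, the minimum mean of 1 FPKM and the replicate block. Its log2 difference was 0.75 with no filter on low values (limma adjusted p = 0.0727) and 0.75 without the trend (0.0837), where the call was lost, and ran from 0.65 to 0.88 when 1 library was left out (adjusted p up to 0.0901). YTHDF2, YTHDC1 and YTHDC2 kept their direction in all 13 fits and were called in none. YTHDF1 ran from -0.15 to 0.03 when 1 library was left out, turning to 0.031 without oeALKBH5 replicate 3. YTHDF2 ran from -0.14 to -0.01. When 1 library was left out, the difference in the readers' sum ran from 20.1 to 36.8 FPKM, and the differences in share from 7.14 to 9.92 percentage points for YTHDF3, 2.90 to 4.47 for YTHDC1, -6.96 to -4.18 for YTHDF2, -5.26 to -2.98 for YTHDC2 and -2.89 to -1.15 for YTHDF1, the last nearest 0 without oeALKBH5 replicate 3; the direction of each held. Upper quartile scaling cannot change a share, and gave a difference in the sum of 30.9 FPKM beside 28.7 FPKM.

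The number of called genes, 695, was 421 with no filter, 270 without the trend and 344 with the replicate block, and 232 to 436 when 1 library was left out; 198 of the 270 calls without the trend, 73.3%, were higher, beside 55.4% of the 695. Same-numbered libraries of the groups deviated with correlations of -0.017, -0.0205 and 0.0315 over genes. The libraries did not all correlate best with their own number, so no deviation shared by number was seen. The labels do not say what a number shares, so whether the samples were paired is not known. With the replicate block YTHDF3 kept its call (adjusted p = 0.0296). The lists hold at most 3 called genes, so their counts moved easily. RNA granule proteins had 0 with no filter, without the trend, with quantile scaling, with the replicate block and in each fit without 1 library (0 to 0). The eIF3 list had 1 with no filter, with a pseudocount of 0.1 and with upper quartile scaling, 3 with quantile scaling, where EIF3F was called as well (adjusted p = 0.0409), 0 without the trend and with the replicate block, and 0 to 2 without 1 library. YTHDC1 partners had 0 and the DEAH-box list 0 without the trend, and the former 1 to 2 without 1 library. Decay genes had 0 to 1 without 1 library. Other m6A-binding proteins had 1 without the trend, with quantile scaling and with the replicate block, and 1 to 2 without 1 library. The cause of these moves was not tested. Depth limits all low genes, and counts of reads were not used here.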
